A study of Mus musculus with 9 samples.

Results

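The 10 genes described here belong to intestinal bile acid handling and were followed in the colon of wild-type mice. They are the uptake carrier Slc10a2, the binding protein Fabp6, the export subunits Slc51a and Slc51b, the receptors Nr1h4 and Gpbar1, the receptor targets Fgf15 and Nr0b2, and the pumps Abcc3 and Abcc2. Of these, 9 were selected by function, and Slc10a2 had been picked in an earlier analysis of these libraries for its own levels, so the values of all 10 are given as a description without a test. A count was listed for 8 of the 10 genes, out of 22262 genes with a count in any library.

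All 9 mice were female C57BL/6N wild-type animals aged 12 months, and none carried a transgene. The 4 WT_SE mice (numbers 1, 2, 3 and 5) lived in the standard environment, in ordinary cages shared by a few animals. The 5 WT_EE mice (numbers 1 to 5) lived from weaning in the enriched environment, a large cage with several co-housed females, tunnels, running wheels and objects that were moved around. Co-housing and enrichment therefore cannot be told apart in this comparison, which asked whether housing changes gene activity in the colon. Each library came from a flushed piece of the colon wall of 1 mouse, so epithelium, muscle and nerve were sequenced together. In such bulk tissue, fewer cells of a type and less RNA per cell cannot be told apart.

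Bile acids are made from cholesterol in the liver and help to dissolve dietary fat. Most are taken back by enterocytes of the ileum, where SLC10A2 carries them in with sodium, FABP6 binds them in the cytosol, and the SLC51A and SLC51B pair lets them out towards the blood. Inside the cell they activate the nuclear receptor FXR, encoded by Nr1h4, which in the ileum switches on Fabp6, both Slc51 genes, Nr0b2 and the hormone gene Fgf15 and holds Slc10a2 down. The colon receives the bile acids that escape the ileum, many of them modified by bacteria.

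The sequences upstream of the uptake carrier and of its intracellular binding protein are shown because the levels of both genes ranged widely between mice, and because FXR is known to act on both. Entries from RefSeq on GRCm38.p6 were matched by symbol for 8 of the 10 genes, and none was matched for Fgf15 and Abcc3. In each, the 250 bases before the start of the RefSeq entry were searched for 2 motifs. These were the inverted repeat AGGTCANTGACCT, an idealised FXR element made of facing half-sites, and GTTAATNATTAAC, the idealised element of the HNF1 factors. The RefSeq start can lie inside the GENCODE gene span. All 250 searched bases lay inside that span for Nr1h4, 182 for Slc51b, 116 for Abcc2, 64 for Slc10a2 and 50 for Gpbar1. Both motifs read the same on both strands. Capitals mark windows with at most 3 mismatches to the first motif or at most 1 to the second, and the Slc10a2 stretch stops where the annotated gene begins. The Slc10a2 stretch is chr8:5105352-5105537 and the Fabp6 stretch is chr11:43601563-43601812, both read on the minus strand.
Slc10a2: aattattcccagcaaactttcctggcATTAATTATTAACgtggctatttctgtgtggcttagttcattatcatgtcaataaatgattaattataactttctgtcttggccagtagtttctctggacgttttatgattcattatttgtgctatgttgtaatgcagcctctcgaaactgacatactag
Fabp6: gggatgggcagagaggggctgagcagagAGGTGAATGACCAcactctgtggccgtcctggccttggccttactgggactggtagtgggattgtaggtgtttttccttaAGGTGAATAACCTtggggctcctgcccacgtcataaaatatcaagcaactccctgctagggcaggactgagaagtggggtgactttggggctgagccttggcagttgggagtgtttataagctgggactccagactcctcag

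The Slc10a2 stretch held 1 window with 1 mismatch to the HNF1 element, starting 224 bases before the start of its RefSeq entry. That start lies inside the GENCODE gene span, and the printed stretch leaves out the 64 searched bases within the span. At most 1 mismatch to that motif was found in 62 of 32851 promoter windows of the same length, or 0.189%. The Fabp6 stretch held 2 windows with 2 mismatches each to the inverted repeat, starting 222 and 142 bases before the start of its RefSeq entry. At most 2 mismatches occurred in 315 promoters, or 0.959%. Slc51a and Slc51b each held 1 window with 3 mismatches to the inverted repeat, a closeness reached by 9.63% of promoters. The Slc51a window lay at chr16:32487946-32487958. The Slc51b window lay at chr9:65422948-65422960, across the start of the GENCODE gene span. Their bases are given for comparison with the Fabp6 windows.
Slc51a: AGGACTTTGTCCT
Slc51b: GGGTCATTCACCC

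In Slc10a2, Nr1h4, Gpbar1, Nr0b2 and Abcc2 the closest window to the inverted repeat had 4 mismatches. These matches describe letters and not binding.

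The libraries held 295535 to 454043 molecule counts, and a floor of 3 counts in a library equalled 6.50 to 10.4 CPM (counts scaled to a common library size by TMM, which corrects for library composition). Each count is a tag at the 3′ end of a transcript, so levels of different genes can be compared without dividing by length. Colon epithelium was well represented, with 9 of 9 colonocyte and goblet cell markers present and a summed level of 3371 to 4314 CPM in WT_SE and 3523 to 4882 CPM in WT_EE. Of the small intestinal markers Lct, Apoa4, Apoc3 and Treh were at 0 in every library, and Apoa1, Fabp1, Rbp2 and Lyz1 had at most 3 counts in any. Others of these 16 markers were counted in every library, with 92 to 122 counts of Fabp2, 79 to 112 of Mep1a, 55 to 96 of Slc5a1 and 4 to 40 of Alpi. The list summed to 845 to 925 CPM in WT_SE and 808 to 1022 CPM in WT_EE. WT_SE mice 1 and 3 have library names with another ending than the other 7 mice, and no WT_EE library shares it.

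Slc10a2, the sodium-dependent carrier that takes bile acids up across the apical membrane (chr8:5083219-5105351), had the widest range between mice. It had 26, 103, 110 and 16 counts in WT_SE mice 1, 2, 3 and 5, or 67.7, 286, 371 and 43.6 CPM. It had 107, 3, 117, 4 and 10 counts in WT_EE mice 1 to 5, or 232, 10.4, 254, 12.3 and 23.1 CPM. WT_SE mice 2 and 3 and WT_EE mice 1 and 3 stood well above the other 5 animals, so that high and low mice occurred in both environments and the groups overlapped.

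The highest WT_SE mouse had 8.51 times the level of the lowest (95% counting interval 5.01 to 15.4). Among the WT_EE mice this ratio was 24.3 (95% counting interval 8.12 to 120), where the lowest mouse had 3 counts. The intervals are exact, rest on the counts of 2 libraries each and cover counting error only. Within the groups, the SD of log2(CPM + 4) was 1.84 for Slc10a2, against a median of 0.33 over the 10830 tested genes with a mean of at least 5 counts, and Slc10a2 ranked 13th of them by this measure.

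Markers of epithelium ranged far less between mice. The 10 general epithelial markers summed to 2632 to 3156 CPM in WT_SE and 2780 to 3554 CPM in WT_EE. Per 1000 counts of these markers, Slc10a2 had 109 and 119 counts in WT_SE mice 2 and 3 and 80.6 and 91.2 in WT_EE mice 1 and 3. It had 22.7 and 13.8 in WT_SE mice 1 and 5, and 3.11, 3.47 and 7.86 in WT_EE mice 2, 4 and 5.

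**Figure D1:**
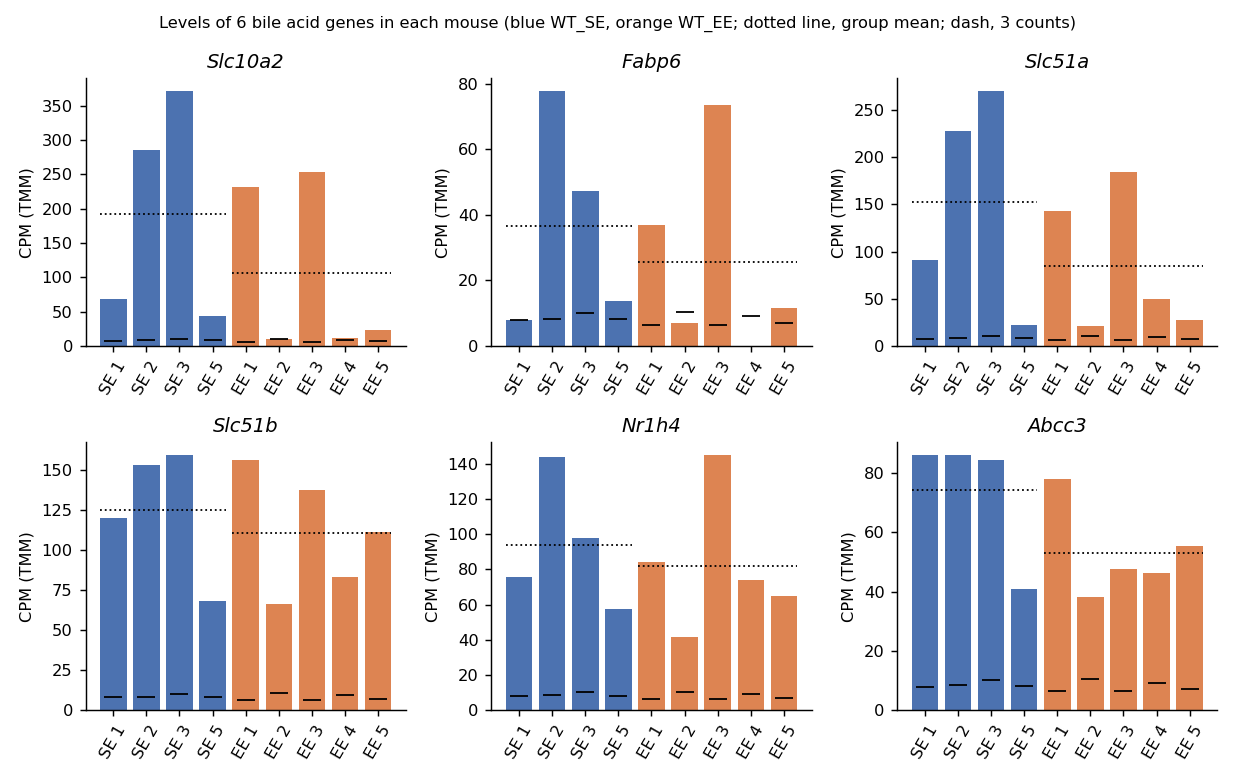
Level of 6 bile acid genes in CPM after TMM scaling (y axis) in each of the 9 mice (x axis, blue WT_SE, orange WT_EE). Dotted lines are group means and short dashes mark the floor of 3 counts in that library. Slc10a2, Fabp6 and Slc51a were highest in the same 4 mice, which come from both environments, while Slc51b, Nr1h4 and Abcc3 spanned a narrower range.

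Fabp6, the cytosolic bile acid binding protein of the ileal enterocyte (chr11:43596049-43601540), was high in the same animals at a lower level. It had 3, 28, 14 and 5 counts in WT_SE mice 1, 2, 3 and 5 (7.81, 77.8, 47.2 and 13.6 CPM). In WT_EE mice 1 to 5 it had 17, 2, 34, 0 and 5 counts (36.8, 6.95, 73.7, 0 and 11.5 CPM). The 4 mice with the most Slc10a2 were also the 4 with the most Fabp6. In 3 mice (WT_SE 1, WT_EE 2 and WT_EE 4) it was at or under the floor, so a level below it was not detectable there at this depth.

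SLC51A and SLC51B form the basolateral exporter, which works only when both subunits are made. Slc51a (chr16:32474504-32487879) had 35, 82, 80 and 8 counts in WT_SE mice 1, 2, 3 and 5 (91.2, 228, 270 and 21.8 CPM). It had 66, 6, 85, 16 and 12 counts in WT_EE mice 1 to 5 (143, 20.9, 184, 49.3 and 27.7 CPM). The same 4 mice were again the highest, and the highest level was 12.4 times the lowest in WT_SE and 8.83 times in WT_EE.

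Slc51b (chr9:65412714-65422955) varied far less. It had 46, 55, 47 and 25 counts in WT_SE mice 1, 2, 3 and 5 (120, 153, 159 and 68.2 CPM) and 72, 19, 63, 27 and 48 counts in WT_EE mice 1 to 5 (156, 66.1, 137, 83.2 and 111 CPM). The order of the mice was similar, with the same 4 on top, but the ratio of highest to lowest was 2.33 in WT_SE and 2.36 in WT_EE. The within-group SD on the log2 scale was 1.42 for Slc51a and 0.51 for Slc51b.

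The balance between the 2 subunit transcripts therefore shifted from mouse to mouse. Slc51a made up 59.9% and 63.0% of the summed Slc51a and Slc51b counts in WT_SE mice 2 and 3 and 57.4% in WT_EE mouse 3. It made up 24.2% in WT_SE mouse 5 (95% Wilson interval 12.8 to 41.0) and 24.0%, 37.2% and 20.0% in WT_EE mice 2, 4 and 5. The intervals of WT_SE mouse 3 (54.3 to 70.9) and WT_EE mouse 5 (11.8 to 31.8) were far apart, whereas WT_SE mouse 1 at 43.2% and WT_EE mouse 1 at 47.8% lay between. Both gene spans overlap a gene on the opposite strand (Pcyt1a for Slc51a, Rasl12 for Slc51b), and whether the counting used strand is not given in the sources used here.

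**Figure D2:**
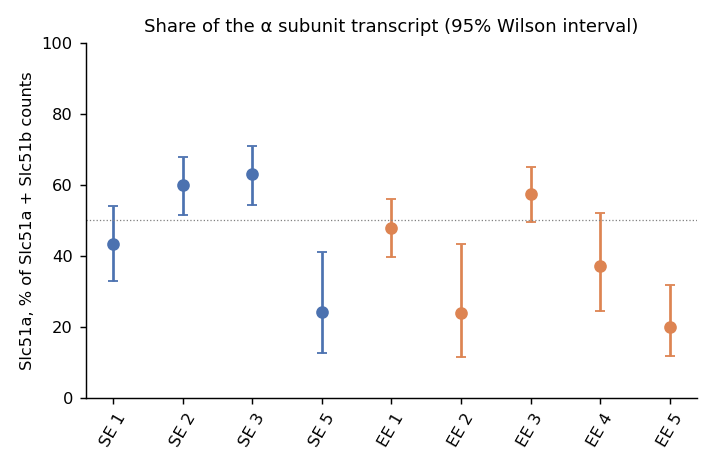
Share of Slc51a in the summed Slc51a and Slc51b counts, in percent (y axis), in each mouse (x axis, blue WT_SE, orange WT_EE). Bars are 95% Wilson intervals for counting error and the dotted line marks equal counts. The share ran from 20.0% in WT_EE mouse 5 to 63.0% in WT_SE mouse 3.

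Nr1h4, the gene of the bile acid receptor FXR (chr10:89454234-89533585), was detected in every mouse. It had 29, 52, 29 and 21 counts in WT_SE mice 1, 2, 3 and 5 (75.5, 144, 97.9 and 57.3 CPM). It had 39, 12, 67, 24 and 28 counts in WT_EE mice 1 to 5 (84.4, 41.7, 145, 73.9 and 64.7 CPM). WT_SE mouse 2 and WT_EE mouse 3 were the highest of their groups, with ratios of highest to lowest of 2.52 and 3.48.

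Of the other receptor and the FXR targets, little or no RNA was counted. Gpbar1, the membrane receptor for bile acids on several cell types (chr1:74278550-74279624), had 1 count in WT_SE mouse 2 and 1 in WT_EE mouse 5. Fgf15, the hormone that signals from the ileum to the liver (chr7:144896531-144900953), had 0 counts in all 9 libraries. Nr0b2, the corepressor SHP (chr4:133553376-133556536), also had 0. A count of 0 over all 9 libraries allows a level of up to 0.891 CPM. Of the genes that FXR activates in the ileum, Slc51a and Slc51b were above the floor in all 9 mice and Fabp6 in 6, while Fgf15 and Nr0b2 were not detectable at this depth in any.

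Abcc3, an export pump of the basolateral membrane that also carries conjugated bile acids (chr11:94343295-94392997), had the smallest within-group SD of the genes above the floor, 0.42 on the log2 scale. It had 33, 31, 25 and 15 counts in WT_SE mice 1, 2, 3 and 5 (86.0, 86.1, 84.4 and 40.9 CPM). It had 36, 11, 22, 15 and 24 counts in WT_EE mice 1 to 5 (77.9, 38.2, 47.7, 46.2 and 55.4 CPM). WT_SE mouse 5 was low for its group, and 3 of 4 WT_SE mice were above all WT_EE mice. Abcc2, an apical export pump (chr19:43782192-43840740), had 1 to 3 counts per library and was never above the floor.

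Ordered by mean level over the 9 mice, Slc10a2 came first with 144 ± 140 CPM (SD, n = 9). Slc51b followed with 117 ± 37.2 CPM and Slc51a with 115 ± 95.1 CPM, then Nr1h4 with 87.2 ± 36.3 CPM and Abcc3 with 62.5 ± 20.7 CPM (SD, n = 9 each). Fabp6 had 30.6 ± 29.7 CPM and Abcc2 had 6.04 ± 2.06 CPM (SD, n = 9 each). The ranges of neighbours in this order overlapped at every step. In WT_SE mice 2 and 3 and WT_EE mice 1 and 3, Slc10a2 was the most abundant of the 10, whereas in WT_SE mice 1 and 5 and WT_EE mice 2, 4 and 5 both Slc51b and Nr1h4 exceeded it.

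Under enriched housing, the mean levels of the detected genes were lower, within the spread between mice. Of the 10 genes, 7 had at least 4 CPM in at least 1 library and entered edgeR's quasi-likelihood fit over 17441 genes. None of the 7 was called at an unadjusted p under 0.05, where 7.64% of all tested genes were. None was called after Benjamini-Hochberg adjustment, where 0.0401% of all genes were. In none did the normalized levels of the 2 groups fail to overlap, which happened for 2.59% of all genes. Because the genes were taken up with their values known, nothing is read from these counts.

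Slc10a2 averaged 192 ± 162 CPM in WT_SE (SD, n = 4) and 106 ± 125 CPM in WT_EE (SD, n = 5), a log2 fold change of -0.69 (SE 0.47). Slc51a averaged 153 ± 116 CPM and 85.0 ± 73.9 CPM, a log2 fold change of -0.72 (SE 0.39). Abcc3 averaged 74.3 ± 22.3 CPM and 53.1 ± 15.2 CPM, a log2 fold change of -0.45 (SE 0.25). For these 3 genes the estimate was larger than its error, yet the groups overlapped in each. This error is the fold change over the square root of edgeR's F statistic, whose dispersion is moderated over genes. DESeq2 gave -0.87 (SE 1.12) for Slc10a2, -0.86 (SE 0.87) for Slc51a and -0.47 (SE 0.31) for Abcc3. With limma-voom these were -1.15 (SE 0.67), -0.59 (SE 0.55) and -0.40 (SE 0.26). Whether the estimate exceeded its error thus depended on the tool for Slc10a2 and Slc51a.

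Fabp6 averaged 36.6 ± 32.5 CPM in WT_SE and 25.8 ± 30.2 CPM in WT_EE (log2 fold change -0.33, SE 0.52). Slc51b averaged 125 ± 41.5 CPM and 110 ± 36.9 CPM (-0.12, SE 0.22), and Nr1h4 93.8 ± 37.7 CPM and 82.0 ± 38.7 CPM (-0.14, SE 0.26). Abcc2, at the floor throughout, had -0.45 (SE 0.67). All 7 fold changes were below 0, as were 8547 of the 17441 over all genes, and their median was -0.45 against 0.01. All 7 genes were counted in the same mice, and Slc10a2, Fabp6, Slc51a, Slc51b and Nr1h4 also shared their highest mice. The signs are therefore not independent. Abcc3 shared these mice only in part, with 47.7 CPM in WT_EE mouse 3 and 55.4 CPM in WT_EE mouse 5.

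These estimates depended on single mice. Without WT_SE mouse 3 the log2 fold change of Slc10a2 was -0.17, and without WT_EE mouse 3 it was -1.27. Slc51a went from -0.31 to -1.22 for the same mice. Fabp6 turned to 0.40 without WT_SE mouse 2 and reached -1.20 without WT_EE mouse 3, and Nr1h4 turned to 0.15 without WT_SE mouse 2. Without WT_SE mice 1 and 3, whose library names end differently, Slc10a2 had -0.49, Slc51a -0.44, Abcc3 -0.21 and Slc51b 0.06.

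**Figure D3:**
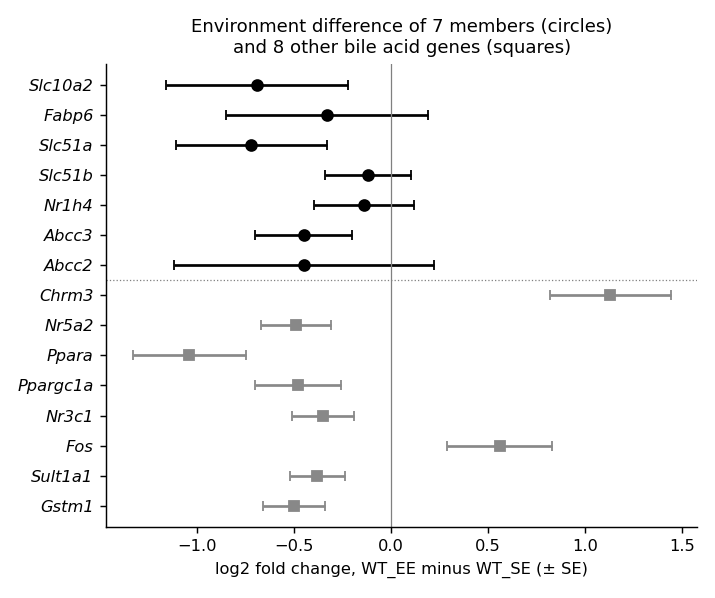
Log2 fold change of WT_EE over WT_SE (x axis) with its standard error, derived from edgeR's F statistic. Circles are the 7 bile acid genes described above that could be fitted. Squares are 8 further bile acid genes with an unadjusted p under 0.05 (edgeR). The 7 estimates lay between -0.72 and -0.12, and of the 8 further genes Chrm3 and Fos were higher in WT_EE.

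Many other genes followed the levels of Slc10a2 from mouse to mouse. Likeness was measured by Pearson's r of log2(CPM + 4) over the 9 mice, which fall into a high and a low set, so that r is given as a description only. Of 10829 genes compared, 49 had an r of at least 0.90 and 38 had an r of -0.90 or lower. Among the bile acid genes, r was 0.91 for Slc51a, 0.90 for Fabp6, 0.87 for Slc51b, 0.82 for Nr1h4 and 0.69 for Abcc3. Slc51a ranked 35th of all genes by this measure, Fabp6 43rd and Abcc3 561st.

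The 10 most like genes were Prap1, Osr2, Fmo5, Cyp4v3, Amn, Cyp4b1, Gm43189, Sis, Abcc5 and Slc17a9, with r from 0.98 to 0.95. Osr2, a zinc finger transcription factor (chr15:35296098-35303305), was close to all or none. It had 7, 93, 81 and 1 counts in WT_SE mice 1, 2, 3 and 5 and 84, 0, 89, 0 and 0 in WT_EE mice 1 to 5. Sis, the brush border sucrase-isomaltase of the small intestine, had 1, 12, 23 and 1 counts in WT_SE mice 1, 2, 3 and 5. In WT_EE mice 1 to 5 it had 8, 0, 15, 0 and 0 counts.

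Prap1, a secreted epithelial protein gene, had 12, 49, 44 and 5 counts in WT_SE mice 1, 2, 3 and 5 and 35, 2, 41, 2 and 3 in WT_EE mice 1 to 5. Fmo5, a flavin monooxygenase gene, had 31, 85, 52 and 14 counts in WT_SE and 69, 8, 90, 9 and 16 in WT_EE, in the same order of mice. Amn encodes amnionless, a partner of cubilin in vitamin B12 uptake in the ileum, and had at most 16 counts. Cyp4v3 and Cyp4b1 are cytochrome P450 genes, Abcc5 an export pump gene and Slc17a9 a vesicular nucleotide carrier gene. Prap1 overlaps Fuom on the opposite strand, so reads of this pair may not be fully told apart.

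**Figure D4:**
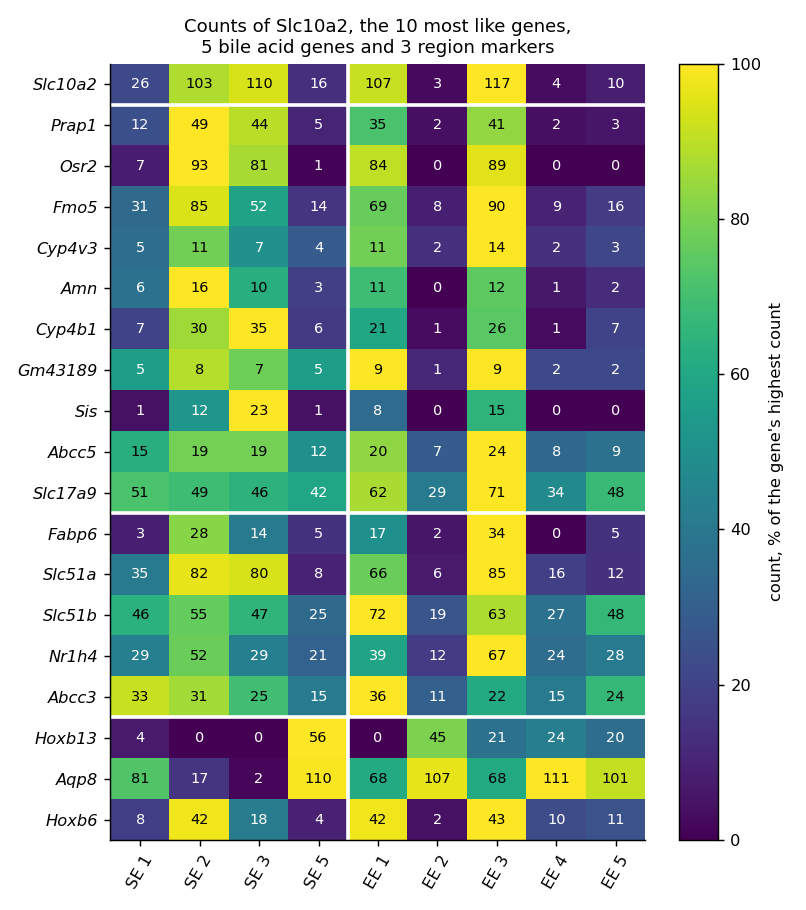
Counts of Slc10a2, the 10 genes most like it, 5 further bile acid genes and 3 markers of position along the colon (rows, separated by white lines) in each mouse (columns, WT_SE left, WT_EE right). Colour gives the count as a percentage of the highest count of that gene and the number is the count itself. WT_SE mice 2 and 3 and WT_EE mice 1 and 3 are bright for Slc10a2 and most genes like it, and Aqp8 was lowest in the 2 WT_SE mice of these 4.

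Markers of position along the colon also differed between mice. Aqp8, a water channel gene of surface colonocytes, had 81, 17, 2 and 110 counts in WT_SE mice 1, 2, 3 and 5 and 68, 107, 68, 111 and 101 in WT_EE mice 1 to 5. Hoxb13, the Hox gene of the hindmost gut, had 0 counts in WT_SE mice 2 and 3 and WT_EE mouse 1 but 21 in WT_EE mouse 3. It had 4 and 56 in WT_SE mice 1 and 5 and 45, 24 and 20 in WT_EE mice 2, 4 and 5. Hoxb6, a more anterior Hox gene, had 8, 42, 18 and 4 counts in WT_SE mice 1, 2, 3 and 5 and 42, 2, 43, 10 and 11 in WT_EE mice 1 to 5. The mice with the most Hoxb6 were thus WT_SE 2 and 3 and WT_EE 1 and 3, as for Slc10a2. The more anterior Hoxb3, Hoxb4, Hoxb5 and Hoxd4 also had their highest counts in these mice. Some other Hox genes did not divide in this way by anterior and posterior group. Hoxd10, of the posterior groups like Hoxb13, had 2, 22, 8 and 0 counts in WT_SE and 5, 0, 12, 0 and 2 in WT_EE. Hoxd11 had 11, 28, 16 and 8 in WT_SE and 14, 8, 14, 5 and 4 in WT_EE. Both were highest in the mice with high Slc10a2. The more anterior Hoxa5 had 15 counts in WT_SE mouse 3 and 55 in WT_SE mouse 5.

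Over whole lists, the 13 Hox genes of paralog groups 3 to 6 summed to 453, 1073, 672 and 336 CPM in WT_SE mice 1, 2, 3 and 5. In WT_EE mice 1 to 5 they summed to 782, 417, 676, 376 and 323 CPM, and the highest sums were again in the mice with high Slc10a2. The 9 genes of groups 10 to 13 summed to 375, 275, 213 and 505 CPM in WT_SE and to 342, 577, 301, 484 and 425 CPM in WT_EE, in the same order of mice. The environments overlapped on both lists. The 8 smooth muscle markers summed to 1823 to 2381 CPM in WT_SE and to 1833 to 3425 CPM in WT_EE, and the 7 fat cell markers to 35.5 to 940 CPM and 30.0 to 451 CPM. The part of position, muscle and fat in the levels of the bile acid genes was not tested.

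The wider bile acid pathway was read from 69 further genes, of which 62 had a count and 52 were tested. Of these 52 genes, 10 had an unadjusted p under 0.05, 3 higher and 7 lower in WT_EE (edgeR). After Benjamini-Hochberg adjustment 0 of the 52 were called. Their share was 19.2%, beside the 7.64% over all genes, and their median log2 fold change was -0.08. No enrichment was tested, and the lists were chosen with earlier results of these data known. Nr1i3 and Ugt1a1 are 2 of the 10 and were above 3 counts in at most 1 mouse, so no values are given for them.

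Synthesis of bile acids belongs to the liver. Of its 17 genes on the list, 13 had a count in any library and 6 were above 3 counts in at least 2 mice. Cyp7a1, the rate-limiting enzyme of the classical route, and Cyp8b1 had 1 count each over all 9 libraries, and Baat, which conjugates bile acids with amino acids, had 0. Cyp27a1, which starts the alternative route, had 3 to 17 counts per library and averaged 24.7 CPM. Of 8 synthesis genes tested none was called, 2 of them higher and 6 lower in WT_EE. The most abundant were the peroxisomal genes Scp2 with 81.6 CPM, Hsd17b4 with 61.0 CPM and Acot8 with 57.9 CPM on average over the 9 mice.

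Among other transporters, 8 were tested and none was called. Abcb1a, the efflux pump P-glycoprotein, averaged 346 ± 31.4 CPM in WT_SE (SD, n = 4) and 325 ± 42.4 CPM in WT_EE (SD, n = 5), a log2 fold change of -0.09 (SE 0.13). Abcg2, another apical efflux pump, averaged 163 ± 25.9 CPM and 174 ± 15.6 CPM (0.08, SE 0.15). The lipid flippase gene Atp8b1 averaged 286 CPM over all mice. The uptake carrier of hepatocytes, Slc10a1, had 1 count in all and the canalicular bile salt pump, Abcb11, had 0.

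Of the other receptors, 9 were tested and 2 had an unadjusted p under 0.05 (22.2%, beside 7.64% over all genes), both higher in WT_EE. Chrm3, a muscarinic acetylcholine receptor gene that bile acids can act on, had 16, 8, 5 and 13 counts in WT_SE mice 1, 2, 3 and 5 and 17, 18, 43, 30 and 20 in WT_EE mice 1 to 5. On the CPM scale the groups overlapped. The log2 fold change was 1.13 (SE 0.31), with an adjusted p = 0.186 from the edgeR fit over all genes. The two-sided exact permutation test over all ways to part the 9 mice into 4 and 5 gave p = 0.0317. The smallest p the design allows is 0.00794. This test was run only for the 8 genes already picked by an edgeR p under 0.05 in the same mice. Its p-values here and below are therefore no separate check.

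Chrm3 is a gene of smooth muscle and nerve as well as epithelium. Of the 8 smooth muscle markers 8 had a higher estimate in WT_EE, beside 8894 of the 17441 genes tested. An unadjusted p under 0.05 (edgeR) was found for 4 of them, beside 7.64% of all genes, and 0 were called after adjustment. The part of muscle content in the Chrm3 difference was not tested. Vdr, the vitamin D receptor, which also senses lithocholic acid, averaged 310 ± 23.3 CPM in WT_SE and 260 ± 22.3 CPM in WT_EE (log2 fold change -0.26, SE 0.13) and was not called. Rxra, the partner of FXR on DNA, averaged 99.3 CPM over all mice and the pregnane X receptor gene Nr1i2 averaged 73.4 CPM.

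Of 16 regulators tested, 5 had an unadjusted p under 0.05 (31.2%, beside 7.64% over all genes), 4 of them lower in WT_EE. Ppara, the fatty acid receptor gene, had 25, 39, 41 and 15 counts in WT_SE mice 1, 2, 3 and 5 and 25, 6, 30, 9 and 14 in WT_EE mice 1 to 5. Before scaling to library size, WT_SE mice 2 and 3 and WT_EE mouse 3 had the most counts. Depth differed, with 30 of 444520 counts in WT_EE mouse 3 and 25 of 383401 in WT_SE mouse 1. Ppara averaged 88.2 ± 43.6 CPM in WT_SE and 40.0 ± 18.7 CPM in WT_EE. Its log2 fold change was -1.04 (SE 0.29, edgeR adjusted p = 0.203, exact permutation p = 0.0635).

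Nr5a2, the gene of LRH-1, which works with SHP on bile acid genes, averaged 150 ± 29.8 CPM in WT_SE and 105 ± 20.5 CPM in WT_EE. Its log2 fold change was -0.49 (SE 0.18, edgeR adjusted p = 0.419, exact permutation p = 0.0476). Ppargc1a, a coactivator gene of energy metabolism, had a log2 fold change of -0.48 (SE 0.22, edgeR adjusted p = 0.602, exact permutation p = 0.111). It was -0.14 without WT_SE mice 1 and 3, and -0.27 without WT_SE mouse 3 alone. Nr3c1, the glucocorticoid receptor gene, had -0.35 (SE 0.16, edgeR adjusted p = 0.585, exact permutation p = 0.0952). Fos, an immediate early gene, was higher by 0.56 (SE 0.27, edgeR adjusted p = 0.633, exact permutation p = 0.254), but by 0.28 without WT_SE mouse 2 and by 0.28 without WT_EE mouse 5. Hnf4a, the epithelial nuclear factor, averaged 284 ± 19.9 CPM and 261 ± 24.8 CPM and was not called, and Zfp36l1, an RNA-binding protein gene, averaged 206 CPM over all mice.

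Of 8 detoxification genes tested, 3 had an unadjusted p under 0.05 (37.5%, beside 7.64% over all genes) and all 3 were lower in WT_EE. Sult1a1, a sulfotransferase gene, had 117, 112, 100 and 103 counts in WT_SE mice 1, 2, 3 and 5 and 131, 54, 117, 67 and 102 in WT_EE mice 1 to 5. It averaged 309 ± 23.2 CPM and 233 ± 37.9 CPM, a log2 fold change of -0.38 (SE 0.14, edgeR adjusted p = 0.413, exact permutation p = 0.0317). Gstm1, a glutathione transferase gene with close paralogs among which reads can be split, averaged 225 ± 49.4 CPM and 156 ± 28.5 CPM. Its log2 fold change was -0.50 (SE 0.16, edgeR adjusted p = 0.298, exact permutation p = 0.0317). Without WT_SE mice 1 and 3 neither was called. The log2 fold change of Sult1a1 was then -0.32 (SE 0.18), close to its value over all mice, and that of Gstm1 was -0.21. Cyp3a13, a bile acid hydroxylating cytochrome P450 gene, averaged 253 CPM over all mice and was not called.

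The hormone genes of colonic L cells, which release hormones when bile acids reach the receptor Gpbar1, were all tested and not called. Pyy averaged 170 ± 30.3 CPM in WT_SE and 177 ± 29.4 CPM in WT_EE, and Gcg, the source of GLP-1, averaged 172 ± 54.1 CPM and 141 ± 22.5 CPM. Insl5, a hormone gene of the hind colon, had 23, 0, 2 and 43 counts in WT_SE mice 1, 2, 3 and 5. It had 12, 30, 32, 35 and 50 counts in WT_EE mice 1 to 5. Its lowest counts were in WT_SE mice 2 and 3 and WT_EE mouse 1, where Slc10a2 was high, while WT_EE mouse 3 had 32 counts of it.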

How the data were processed

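The authors sequenced colon RNA of 9 wild-type mice with a 3′ messenger RNA kit (Lexogen QuantSeq FWD). The deposited values are molecule counts per gene and mouse, whole numbers without normalization. The submitters' processing notes name fastp 0.20.0, STAR 2.7.0f, featureCounts 1.6.0, UMI-tools and GRCm38.p6; the study's text gives another STAR release.

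Symbols and positions came from GENCODE mouse release M21 on GRCm38 (22256 of 22262 genes). A gene was kept if any library reached 4 CPM, one reading of the study's filter. TMM scaling and edgeR 4.0.16 (quasi-likelihood test, environment as the only term) were run in R 4.3.3, with Benjamini-Hochberg adjustment over all genes. A call is an unadjusted p under 0.05, the limit the study names. For single genes, exact permutation tests were two-sided (scipy 1.17.1). Promoter sequences were RefSeq entries. No mouse was left out. Where nothing but numbers marks the mice, p-values measure the spread between these samples. The sample titles name no cage, and mice that shared a cage are not independent samples. Pairs within a group had a chi-square per degree of freedom of 1.17 to 2.30, above sampling noise in every pair.

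The 10 genes and the lists were chosen with earlier results of these data known. Named besides them were other bile acid genes with an unadjusted p under 0.05 and more than 3 counts in at least 2 mice, the 3 most abundant of each list, and the 10 genes most like the member with the largest ratio of highest to lowest level. As Fabp6 had 0 counts in 1 mouse, its ratio was taken against 3 counts, which left Slc10a2. Slc10a1, Abcb11, Cyp7a1, Cyp8b1, Baat and Cyp27a1, and the Hox and marker genes named singly, were chosen after their values were seen. Alternatives were other filters, scalings, tests (DESeq2 1.42.0, limma-voom 3.58.1), a block for the mouse number, the ending of the library name, and each mouse left out.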

Additional observations from a re-analysis of the deposited data

Results flagged for a closer look

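Within each environment, the values of the 6 bile acid genes above the floor and of the 8 further genes with an unadjusted p under 0.05 were examined for a mouse far from the others by Dixon's ratio. Of 28 groups of values, 1 was marked, and chance alone marks about 5% of groups. Abcc3 in WT_SE mouse 5 was at 40.9 CPM (15 counts), whereas the other WT_SE mice lay between 84.4 and 86.1 CPM. The same mouse had the lowest Slc10a2, Slc51a, Slc51b and Nr1h4 of its group. Without it the log2 fold change of Abcc3 went from -0.45 to -0.65.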

How the results depend on the processing

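The number of bile acid genes called among the 10 was 0 and depended on the setting. It was 2 without a filter on low counts (Slc10a2 and Slc51a, both also called after adjustment), where 1577 of 22262 genes were called. With upper quartile scaling it was 1 (Abcc3), where 1368 of 17441 genes were called. Leaving out 1 mouse gave between 0 and 3 calls. It was 0 under the other filters, RLE scaling, library totals, epithelial counts as library size, DESeq2, limma-voom, the library-name ending and a limit of 0.01. Among the other bile acid genes 10 were called. The number was 5 with DESeq2, 4 with the library-name ending as covariate, 4 without the 2 libraries of the other ending, 5 at a limit of 0.01, and 6 to 14 with 1 mouse left out (6 without WT_SE mouse 3). Over all genes 1333 were called. The number was 804 with edgeR's own filter (8590 genes tested), 643 with DESeq2, 685 with the ending as covariate, 677 without the 2 libraries, 408 at 0.01, and 898 to 1583 with 1 mouse left out. After adjustment 7 genes were called, and without a filter 143, among them 2 of the 10 and 2 of the other bile acid genes. The causes were not tested.

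Mice with the same number in both environments are different animals, and their deviations correlated at -0.02 to 0.08, none best with its own number, so the numbers do not pair them. With the mouse number as a block in 8 mice, 1152 genes were called (75 after adjustment), 8 other bile acid genes and 2 of the 10 (Slc10a2 and Slc51a).

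Chrm3 and Ppara kept their call under all 21 alternatives, Nr5a2 under 20, Sult1a1 and Gstm1 under 19, Nr3c1 under 13, Ppargc1a under 12 and Fos under 11, and none changed sign. Leaving out 1 mouse ended the call of Nr5a2 (WT_SE 5), of Nr3c1 (WT_SE 2 or 3, WT_EE 4 or 5), of Ppargc1a (WT_SE 1 or 3, WT_EE 1 or 4) and of Fos (WT_SE 2 or 3, WT_EE 2 or 5). Of the 10 genes most like Slc10a2, 9 were shared with a pseudocount of 1 CPM, 4 with Spearman's rho and 1 with likeness to Fabp6, the last added after seeing the data. At 3 counts or fewer per library, levels of Abcc2, Gpbar1 and of Fabp6 in 3 mice are limited by depth.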

Other observations

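Some bile acid genes of low or moderate level, picked here after their values were seen, had their counts largely in WT_SE mice 2 and 3 and WT_EE mouse 3. Cyp3a25, a cytochrome P450 gene with close paralogs, had 0, 7, 6 and 0 counts in WT_SE mice 1, 2, 3 and 5 and 1, 0, 7, 0 and 0 in WT_EE mice 1 to 5. Malrd1, a gene known to act on Fgf15 output in the ileum, had 2, 5, 5 and 1 counts in WT_SE mice 1, 2, 3 and 5 and 2, 1, 3, 1 and 0 in WT_EE mice 1 to 5. Slc15a1, the brush border peptide carrier, ran the other way, with 4, 3, 1 and 17 counts in WT_SE mice 1, 2, 3 and 5 and 6, 20, 10, 16 and 16 in WT_EE mice 1 to 5. Most of the Cyp3a25 and Malrd1 counts are near the floor of 3, so these are values without a test.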
